A study of Mus musculus with 4 samples.

Results

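Transcripts of potassium channels and of HCN channels, the pacemaker cation channels opened by hyperpolarization, were measured in the mouse hippocampus. The members are the genes whose symbol in the probe table of the array begins with Kcn or Hcn followed by a subunit number. Kcnj13 and Kcne2, which also mark the choroid plexus, were set aside. This gave 84 of 18194 measured genes, represented by 167 of 45101 probe sets, the groups of oligonucleotides that read a transcript. Of the 84 genes, 81 code for proteins and 3 are noncoding RNAs that carry the name of a channel gene. Each gene is described by its probe set with the highest mean, and 46 of the 84 had further probe sets. Other genes of these families, among them the Kv2 pore subunits, are not analysed here.

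The study profiled whole left hippocampi of wild-type Mus musculus, with 1 array for each of 4 samples, numbered 11, 13, 15 and 17. The labels call them biological replicates and give 1 group, with no treatment and no second genotype, so no difference between conditions can be computed. Strain, age and sex are not given in the labels. All levels are log2 intensities and are given as mean ± SD (n = 4). Probe sets bind their targets with unlike strength, so levels of different genes are not set against each other. In whole tissue, fewer cells of a type and less RNA per cell cannot be told apart.

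Potassium channels let potassium leave the cell and so set the resting potential, end the action potential and limit repetitive firing. Most voltage-gated members assemble as tetramers of pore subunits, often with accessory subunits that change their gating or trafficking. In the hippocampus they are known for the dendritic A current of pyramidal cells, the M current that muscarinic receptors close, the fast spiking of interneurons and the potassium uptake of astrocytes. HCN channels carry an inward current at negative potentials and bind cyclic AMP.

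The tissue and the arrays were checked first. All 8 neuronal markers, all 8 interneuron markers and all 8 astrocyte markers were above background, a limit of 6.40 that is the 95th percentile of 48 genes not expected in hippocampus. The median log2 intensity of an array lay between 4.67 and 4.71. Signal from the 5' end of transcripts was lower in samples 15 and 17: the difference between the 3' and 5' probe sets of Gapdh was 0.62 in samples 11 and 13, 2.64 in sample 15 and 3.79 in sample 17. Beta-actin gave 1.10, 1.25, 1.93 and 2.33 for the samples in numerical order. Exact repeats also occur in the authors' values: 2 or more samples share 1 value in 43 of the 84 members, among them 12 of the 37 above background. Such repeats were not counted over all genes, so these counts do not set the members apart.

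Of the 84 members, 37 were above background, or 44%, against 44.9% of all 18194 genes. The share is close to that of the whole array, while the families differed in their counts. By the probe set with the highest mean, all 4 KChIP and all 3 Kv3 genes were above the limit, and none of the 4 measured KCNE genes. For the KChIP genes this depended on the probe set and the limit. The other probe sets of Kcnip2 had means of 3.99 and 2.94. Kcnip1, Kcnip3 and Kcnip4, at 6.75, 7.74 and 7.26, lay under the highest limit tried, 7.84. Kcnip2 and the 3 Kv3 genes lay above that limit, at 10.02, 8.70, 9.04 and 8.52. The inward rectifiers stood at 5 of 14 and the tandem-pore leak channels at 2 of 12. A gene under the limit may still be transcribed, and one above it need not be, since 3 of the genes not expected in this tissue lay above it. With the limit at the 90th percentile, 6.01, the count was 45. With the limit at the highest gene not expected, 7.84, it was 18, and when each gene took the median of its probe sets in place of the highest it was 24. The members nearest to the limit were Kcnt1 at 6.43 ± 0.10 and Kcnh2 at 6.62 ± 0.069 above it, and Kcnab3 at 6.37 ± 0.0044 and Kcnj6 at 6.35 ± 0.17 under it.

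**Figure D1:**
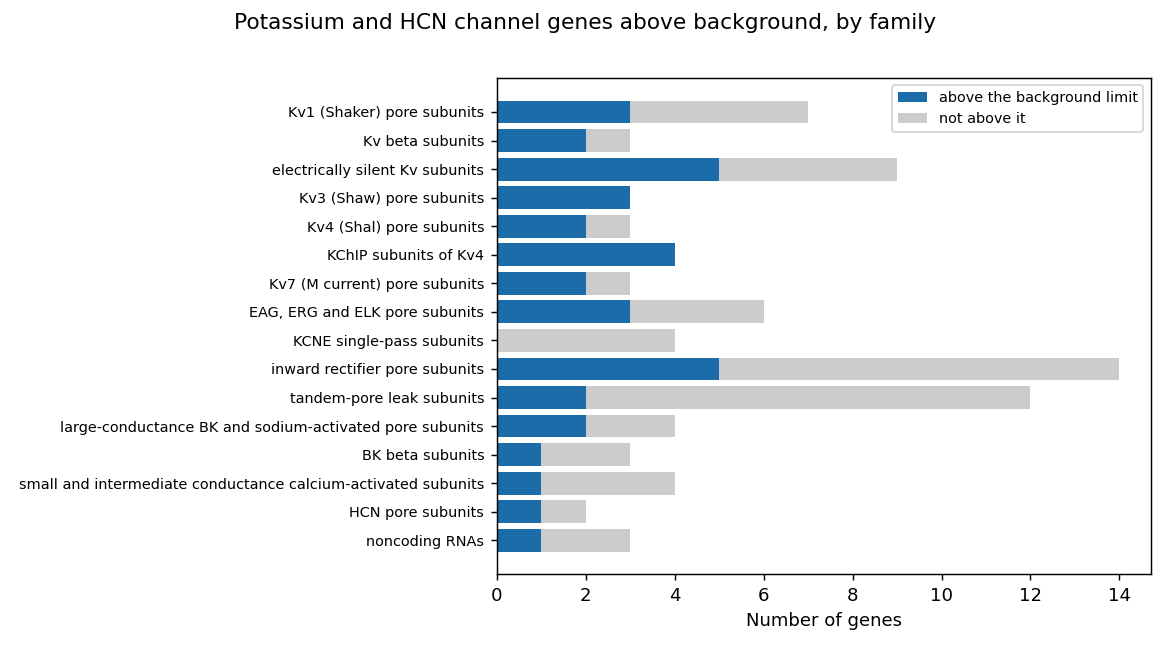
Number of genes (horizontal axis) in each family of channel subunits, with those above the background limit of 6.40 in blue and those not above it in grey. Each gene is counted by its probe set with the highest mean. So counted, all 4 KChIP and all 3 Kv3 genes were above it, against 2 of 12 tandem-pore leak subunits and none of the 4 KCNE genes.

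Among the Kv1 channels, which open near threshold along axons, 3 of 7 pore subunits were above background. Kcna1 stood at 10.004, 10.09, 10.02 and 10.09 in samples 11, 13, 15 and 17. Kcna2, which joins Kcna1 in the same tetramers beside the nodes of Ranvier, stood at 7.96, 8.08, 8.15 and 8.15 in samples 11, 13, 15 and 17, and Kcna6 at 7.37, 7.45, 7.48 and 7.47 in samples 11, 13, 15 and 17. By these probe sets all 3 genes had their lowest value in sample 11, as had 47.3% of all genes above background, and the spans were 0.083, 0.19 and 0.11 on the log2 scale. Kcna1 was read by 3 probe sets above background, with SDs of 0.044, 0.060 and 0.11, and Kcna2 by 2. The others were lowest in sample 17: for Kcna1, 1417416_at was 9.81, 9.77, 9.70 and 9.68 and 1437230_at 8.14, 8.17, 8.14 and 7.94, and for Kcna2, 1439872_at was 7.95, 7.94, 7.98 and 7.91, in samples 11, 13, 15 and 17. Under the limit lay Kcna4 (5.33 ± 0.02), an inactivating subunit of axons, Kcna7 (6.02 ± 0.062), Kcna5 (3.66 ± 0.097) and Kcna3 (4.06 ± 0.043), which is known from T cells and microglia. The cytoplasmic beta subunits that bind Kv1 tetramers were above background for 2 of 3 genes. Kcnab1, which speeds inactivation, had one of the smallest spreads of any member, at 9.39, 9.39, 9.42 and 9.41 in samples 11, 13, 15 and 17. Kcnab2, which acts in trafficking to axons, was highest in sample 15 and had values of 10.94, 11.04, 11.17 and 10.91 in samples 11, 13, 15 and 17, a span of 0.27. By its reported probe set Kcnab3 had nearly the same value in all samples, at 6.37 ± 0.0044, just under the limit. Its other probe set, 1421790_a_at, was lowest in sample 17, at 5.82, 5.82, 5.80 and 5.43 in samples 11, 13, 15 and 17.

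The Kv3 channels, which close fast and let interneurons fire at high rates, were all above background. Kcnc1 stood at 8.71, 8.75, 8.79 and 8.55 in samples 11, 13, 15 and 17. It was lowest in sample 17 by this probe set, but its other 2 probe sets above background were highest in sample 17 (1456944_at, 8.05, 7.93, 8.10 and 8.19) and in sample 13 (1443855_at, 7.95, 8.08, 7.95 and 7.99). Kcnc2, found in the same fast-spiking cells, stood at 8.96, 9.02, 9.13 and 9.06 in samples 11, 13, 15 and 17. Kcnc4, an inactivating subunit known from mossy fibre boutons, stood at 8.56, 8.49, 8.45 and 8.58 in samples 11, 13, 15 and 17 by a probe set with the suffix _s_at, which on this type of array marks sequences shared by more than 1 transcript. The interneuron markers deviated from their own means by -0.058, 0.041, 0.048 and -0.031 in samples 11, 13, 15 and 17, with all 8 above background.

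The A current of pyramidal cell dendrites is carried by Kv4 channels together with KChIP and DPP proteins, and each of these 3 parts was detected. Kcnd2, the main Kv4 subunit of CA1 dendrites, stood at 8.92, 8.97, 9.13 and 9.09 in samples 11, 13, 15 and 17. Kcnd3, found in interneurons and granule cells, stood at 8.77, 8.69, 8.74 and 8.84 in samples 11, 13, 15 and 17, while Kcnd1 was under the limit at 6.26 ± 0.014. The KChIP proteins bind calcium and the N terminus of Kv4 subunits. Kcnip2 stood at 9.92, 10.03, 10.05 and 10.07 in samples 11, 13, 15 and 17, with sample 11 below the other 3. Kcnip1 had a span of 0.037 by its reported probe set, at 6.72, 6.76, 6.75 and 6.75 in samples 11, 13, 15 and 17. Its second probe set above background, 1416785_at, was lowest in sample 17 and spanned 0.42, at 6.67, 6.67, 6.46 and 6.25 in samples 11, 13, 15 and 17. Kcnip3, which is also known as the transcriptional repressor DREAM, had a level of 7.74 ± 0.033. Kcnip4 was lowest in sample 15, at 7.31, 7.31, 7.11 and 7.32 in samples 11, 13, 15 and 17; its second probe set above background, 1437631_at, was highest in sample 17 and lowest in sample 13, at 7.08, 6.88, 7.09 and 7.40 in the same order. The DPP subunits Dpp6 and Dpp10, from the list of partner genes, had levels of 8.60 ± 0.058 and 6.84 ± 0.12.

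The M current subunits Kcnq3 and Kcnq5 were above background and Kcnq1, known from heart and epithelia, was not (4.46 ± 0.049). Kcnq3 stood at 9.31, 9.34, 9.34 and 9.41 in samples 11, 13, 15 and 17, with a span of 0.099. Kcnq5 was lowest in sample 11 and highest in sample 17, at 7.13, 7.27, 7.36 and 7.52 in samples 11, 13, 15 and 17, a span of 0.39 or 1.31-fold. Its second probe set, 1427426_at, lay under the limit and had its lowest and highest values in the same samples (5.44, 5.85, 5.999 and 6.08). The third, 1441071_at, was highest in sample 11 and lowest in sample 17 (5.70, 5.36, 5.47 and 5.26). Of the related EAG, ERG and ELK subunits, 3 of 6 were above background. Kcnh1 stood at 7.73, 7.73, 7.85 and 7.96 in samples 11, 13, 15 and 17 (its second probe set above background, 1418414_at, held the same value in samples 11, 13 and 17 and spanned 0.019), and Kcnh2, which repolarizes the heart and is also found in neurons, at 6.58, 6.58, 6.72 and 6.58 in samples 11, 13, 15 and 17. Kcnh3, an ELK channel of the forebrain, was highest in sample 11 and lowest in sample 17, at 8.38, 8.15, 8.15 and 7.88 in samples 11, 13, 15 and 17. Kcnh8 (3.98 ± 0.069), Kcnh7 (3.63 ± 0.096) and Kcnh5 (2.54 ± 0.069) were under the limit.

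The electrically silent subunits form no channel alone and change the gating of Kv2 tetramers that they join. Of these, 5 of 9 were above background. Kcng1 had the third largest SD of the 37 members above background, with values of 7.51, 7.42, 7.15 and 7.73 in samples 11, 13, 15 and 17, a span of 0.59 or 1.5-fold. Kcnf1 was likewise highest in sample 17 and lowest in sample 15, at 7.73, 7.81, 7.55 and 7.89 in samples 11, 13, 15 and 17. The second probe set of Kcng1, 1459656_at, lay under the limit and had its highest and lowest values in the same samples (3.32, 3.15, 2.90 and 3.33), whereas that of Kcnf1, 1441300_at, held the same 5.26 in samples 13, 15 and 17. The list of genes induced by neuronal activity, with 8 of 12 measured genes above background, deviated by -0.22, 0.16, -0.15 and 0.20 in samples 11, 13, 15 and 17. Its part in the values of Kcng1 and Kcnf1 was not tested. Kcng2 was higher in sample 17 than in the other 3, at 6.82, 6.82, 6.82 and 7.04 in samples 11, 13, 15 and 17, and Kcns2 had a level of 7.93 ± 0.021. The reported value of Kcnv1 was identical in all 4 samples, 7.23 ± 0, and its second probe set, 1453273_at, just under the limit, did vary, at 6.14, 6.19, 6.41 and 6.32 in samples 11, 13, 15 and 17. Under the limit were Kcns3 (5.65 ± 0.081), Kcng4 (5.04 ± 0.10), Kcns1 (4.34 ± 0.13) and Kcnv2 (2.94 ± 0.076).

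None of the KCNE genes, whose single-pass proteins join voltage-gated channels, was above background. Kcne4 had a level of 5.21 ± 0.25, Kcne1l of 4.67 ± 0.20, Kcne1 of 3.78 ± 0.073 and Kcne3 of 2.65 ± 0.022.

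The inward rectifiers pass potassium more easily into the cell than out of it, and 5 of 14 were above background. Kcnj3 and Kcnj9 are subunits of the GIRK channels that G protein beta-gamma dimers open after GABA-B or adenosine receptor activation. Kcnj3 stood at 8.21, 8.30, 8.27 and 8.27 in samples 11, 13, 15 and 17 and Kcnj9 at 7.56, 7.67, 7.65 and 7.67 in samples 11, 13, 15 and 17. The other probe sets of Kcnj3 lay under the limit and had their lowest values in different samples. In the same order, 1444025_at was 6.09, 5.98, 5.53 and 5.35, 1421468_at was 5.61, 5.68, 5.62 and 5.63, and 1444336_at was 4.06, 3.91, 4.06 and 4.06. Kcnj6, the GIRK subunit that forms channels on its own, was just under the limit by its best probe set, at 6.58, 6.19, 6.27 and 6.35 in samples 11, 13, 15 and 17, and its other 4 probe sets had means between 3.39 and 3.84. Kcnj5, the GIRK subunit of the heart, was under the limit at 3.60 ± 0.0079. Kcnj11, the pore of the ATP-sensitive channel that links metabolism to excitability, had a small spread, at 7.86, 7.83, 7.83 and 7.79 in samples 11, 13, 15 and 17. Its regulatory partner Abcc8 was above background too (6.61 ± 0.072). Kcnj8 and Abcc9, the vascular counterparts known from mural cells, were under the limit, at 5.06 ± 0.19 and 5.87 ± 0.21.

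Kcnj10 and Kcnj4 were the inward rectifiers with the largest spread. Kcnj10, the channel through which astrocytes and oligodendrocytes take up potassium, was highest in sample 13, at 8.21, 8.63, 8.34 and 8.23 in samples 11, 13, 15 and 17, a span of 0.42 or 1.34-fold. Its partner subunit Kcnj16 lay under the limit and hardly varied, at 5.38 ± 0.014. Kcnj4, a strong rectifier of forebrain neurons, was read by 1 probe set, with values of 7.59, 7.43, 6.96 and 6.65 in samples 11, 13, 15 and 17. The span was 0.95, or 1.93-fold, highest in sample 11 and lowest in sample 17. The other strong rectifiers Kcnj12 (4.32 ± 0.089), Kcnj14 (3.47 ± 0.11) and Kcnj2 (2.72 ± 0.015) were under the limit, as were Kcnj15 (3.79 ± 0.12) and Kcnj1 (3.60 ± 0.065), which are known from epithelia.

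Of the tandem-pore channels, which carry leak current at rest, Kcnk1 and Kcnk2 were above background. Kcnk1 stood at 9.84, 9.88, 9.89 and 9.94 in samples 11, 13, 15 and 17, and Kcnk2, which responds to stretch, lipids and temperature, at 7.86, 7.63, 7.95 and 7.81 in samples 11, 13, 15 and 17. Kcnk2 was lowest in sample 13, with a span of 0.32. Just under the limit were Kcnk12 (6.34 ± 0.29), which was 6.39, 6.64, 6.39 and 5.94 in samples 11, 13, 15 and 17 and so spanned 0.70, and Kcnk3 (6.20 ± 0.016), an acid-sensitive channel. Kcnk10 had a level of 5.99 ± 0.093, and Kcnk13, a channel of microglia, 5.39 ± 0.092 where the microglial markers were above background for 5 of 8 genes. The means of the other 6, Kcnk6, Kcnk4, Kcnk7, Kcnk16, Kcnk5 and Kcnk15, lay between 3.06 and 5.40.

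Of the calcium- and sodium-activated channels, the BK pore, 1 BK beta subunit, 1 SK gene and 1 sodium-activated gene were above background. Kcnma1, the BK pore, had the largest SD of any member, with values of 8.59, 8.25, 7.80 and 7.49 in samples 11, 13, 15 and 17. The 4 samples ran from highest in sample 11 to lowest in sample 17, a span of 1.10 or 2.14-fold. Kcnmb4, the beta subunit typical of neurons, did not share that spread, at 8.81, 8.75, 8.86 and 8.89 in samples 11, 13, 15 and 17. Kcnmb2 (5.87 ± 0.10) and the smooth muscle subunit Kcnmb1 (3.78 ± 0.086) were under the limit. Kcnn2, whose SK channels carry the afterhyperpolarization and sit near NMDA receptors in spines, stood at 7.56, 7.50, 7.76 and 7.70 in samples 11, 13, 15 and 17. Kcnn1 (6.03 ± 0.074), Kcnn4 (4.68 ± 0.069) and Kcnn3 (4.25 ± 0.13) were under the limit. Kcnt1, a sodium-activated channel, held the same value in 3 samples and was lower in sample 17, at 6.48, 6.48, 6.48 and 6.27 in samples 11, 13, 15 and 17. Kcnt2, its relative, had a level of 4.72 ± 0.26, and Kcnu1, a channel of sperm, 4.85 ± 0.097.

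Both measured HCN genes, Hcn2 and Hcn3, had SDs near the median of the 37 members above background. The SDs were 0.074 and 0.077, and that median was 0.074. Hcn2 stood at 6.87, 6.94, 6.94 and 6.79 in samples 11, 13, 15 and 17, above the limit in every sample, and Hcn3 at 6.05, 6.05, 6.19 and 6.02 in samples 11, 13, 15 and 17, under it in every sample. The spans were 0.16 and 0.17. Pex5l, whose product TRIP8b controls HCN trafficking into dendrites, was above background at 8.18 ± 0.10.

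**Figure D2:**
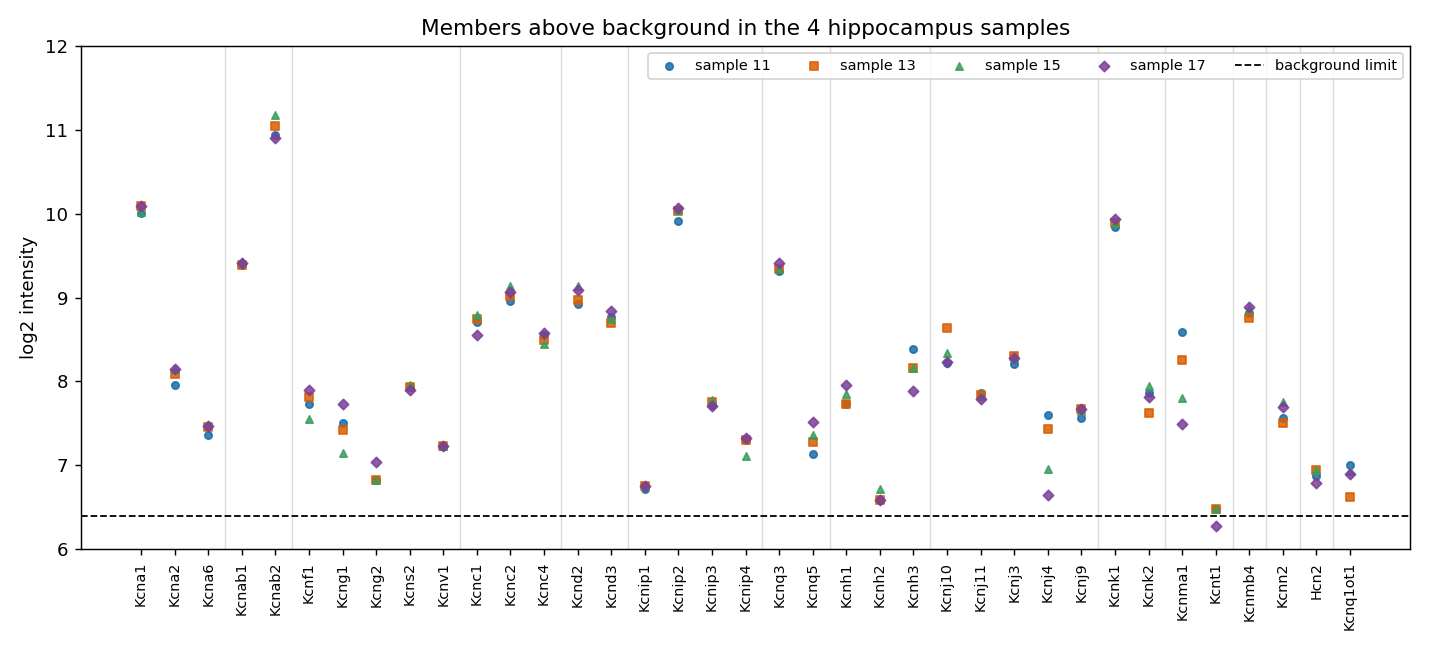
Log2 intensity (vertical axis) of the 37 members above background, 4 points for the 4 samples each, grouped by family, with the background limit of 6.40 as a dashed line. For most genes the 4 points nearly coincide, while those of Kcnma1 and Kcnj4 are spread over 1.10 and 0.95.

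The spread of the members between samples was about that of other genes. The median SD of the 37 members above background was 0.0741, against 0.0848 for all 8176 genes above background, and the largest was 0.485 for Kcnma1, against 1.50 over all genes. In limma's test of whether a probe set varied more than usual for its level, 0 of 54 probe sets of members above background passed at an adjusted p of 0.05, where 0 of all 13114 did, or 0%. At an unadjusted p under 0.05 there were 3 of the 54, or 5.56%, and 341 of the 13114, or 2.6%. Those 3 were 1455896_a_at of Kcnk1 and the reported probe sets of Kcnma1 and Kcnj4, each with an adjusted p of 0.901 in limma. That was also the smallest adjusted p over all 13114 probe sets, and the gene with the SD of 1.50 was not called either. With 3 and 2.1 degrees of freedom this test had little power. Its lack of calls therefore does not show that probe sets varied little. One sample stood apart from the other 3 by Dixon's criterion, its gap to the nearest value over the whole range, in 5 of 36 members above background whose values varied, or 13.9%, against 15.6% of 8123 genes, and in 20 of 82 members at any level, or 24.4%, against 24.5% of 17708. Nothing in these labels says whether the samples came from separate animals beyond the words biological replicates, so the SDs hold whatever part of the spread is technical.

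**Figure D3:**
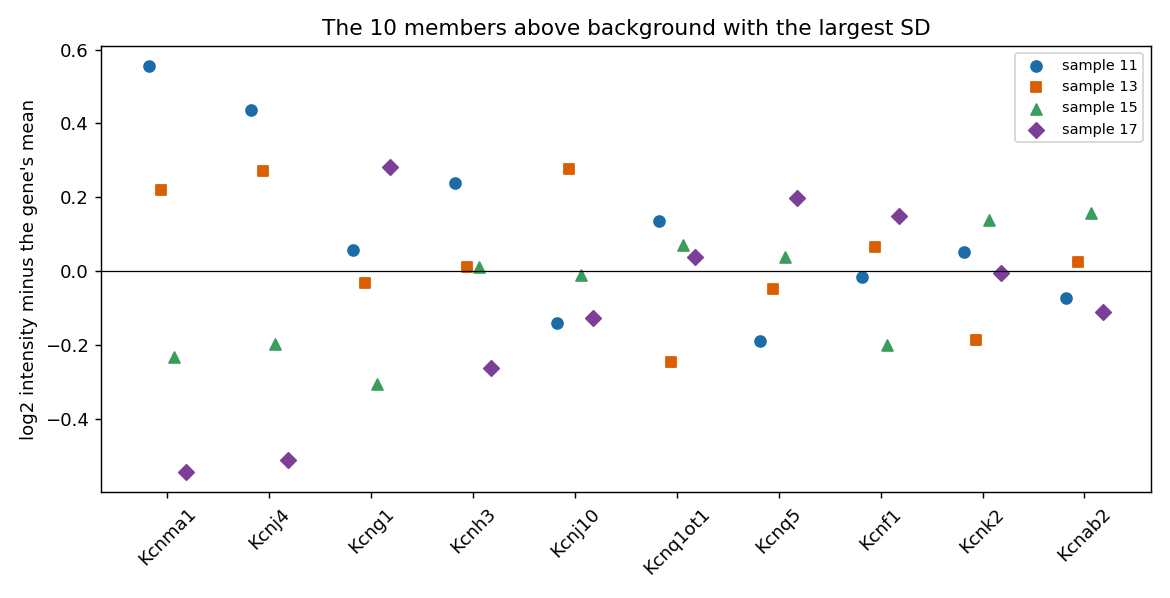
Log2 intensity minus the gene's mean (vertical axis) for the 10 members above background with the largest SD, with 1 point for each sample. Sample 11 is the highest and sample 17 the lowest point for Kcnma1, Kcnj4 and Kcnh3, sample 17 the highest and 15 the lowest for Kcng1 and Kcnf1, and Kcnj10 is highest in sample 13.

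The promoter windows of Kcnma1, Kcnj4, Kcnj10 and Kcnq1ot1 are shown because, of the 6 members above background with the largest SD, these 4 have a window in the RefSeq table. Each runs from 250 bases before to 50 bases after the annotated start, in RefSeq's GRCm38.p6, 5' to 3', with every CpG dinucleotide in capitals. The array reads transcripts and holds no measurement on these windows.
Kcnma1 (chr14:24004156-24004455, minus strand): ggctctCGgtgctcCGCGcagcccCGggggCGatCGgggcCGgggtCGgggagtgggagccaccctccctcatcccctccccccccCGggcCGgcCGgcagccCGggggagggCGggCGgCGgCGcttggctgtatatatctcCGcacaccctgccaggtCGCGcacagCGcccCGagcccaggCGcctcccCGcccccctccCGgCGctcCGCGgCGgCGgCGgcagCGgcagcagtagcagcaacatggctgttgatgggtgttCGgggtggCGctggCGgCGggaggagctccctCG
Kcnj4 (chr15:79505192-79505491, minus strand): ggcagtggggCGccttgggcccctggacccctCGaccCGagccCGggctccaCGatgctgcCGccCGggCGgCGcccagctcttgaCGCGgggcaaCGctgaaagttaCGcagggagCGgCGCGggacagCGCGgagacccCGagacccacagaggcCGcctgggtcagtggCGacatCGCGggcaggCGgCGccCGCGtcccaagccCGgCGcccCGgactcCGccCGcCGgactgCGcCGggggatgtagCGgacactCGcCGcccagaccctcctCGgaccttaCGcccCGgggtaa
Kcnj10 (chr1:172340960-172341259, plus strand): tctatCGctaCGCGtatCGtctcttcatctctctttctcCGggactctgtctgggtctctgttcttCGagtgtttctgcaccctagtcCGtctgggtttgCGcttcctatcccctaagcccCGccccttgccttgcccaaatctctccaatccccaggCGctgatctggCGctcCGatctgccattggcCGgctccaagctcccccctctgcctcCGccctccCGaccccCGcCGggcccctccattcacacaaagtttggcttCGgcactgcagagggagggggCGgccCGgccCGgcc
Kcnq1ot1 (chr7:143296498-143296797, minus strand): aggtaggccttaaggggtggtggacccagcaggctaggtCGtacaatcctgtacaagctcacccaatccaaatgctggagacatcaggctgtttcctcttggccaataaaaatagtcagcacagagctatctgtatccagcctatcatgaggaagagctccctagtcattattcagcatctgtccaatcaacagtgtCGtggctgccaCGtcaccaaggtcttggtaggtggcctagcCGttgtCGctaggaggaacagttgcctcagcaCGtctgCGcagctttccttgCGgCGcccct
The window of Kcnma1 holds 36 CpG dinucleotides, a number reached by 6.23% of all 32851 windows in the table, and that of Kcnj4 41, reached by 3.46%. Kcnj10 has 21 (reached by 24.8%) and Kcnq1ot1 9 (reached by 45.8%), where the median window has 7. The letters TATAAA, searched on both strands, are in none of these 4 windows and in 13.6% of all windows. The table held a window for 63 of the 84 members, too few for a statement on the members as a set.

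Probe sets of a single gene could differ in which samples were high, as in Kcnk1. Its reported probe set 1448690_at stood at 9.84, 9.88, 9.89 and 9.94 in samples 11, 13, 15 and 17, a span of 0.097. The second, 1455896_a_at, stood at 7.84, 7.58, 6.88 and 6.20 in samples 11, 13, 15 and 17, a span of 1.64 or 3.11-fold. The sample that was highest by the reported probe set, 17, was thus the lowest by the other. In Kcnd2 the reported probe set was lowest in sample 11 and the other two above background in sample 17: 1422835_at was 8.92, 8.97, 9.13 and 9.09 in samples 11, 13, 15 and 17, 1422834_at was 7.83, 7.77, 7.83 and 7.72, and 1450773_at was 8.22, 8.002, 7.84 and 7.57. For Kcnc4, 1425090_s_at was 8.56, 8.49, 8.45 and 8.58 and 1425089_at was 7.25, 7.08, 6.89 and 6.70. In these 3 genes 1 probe set had its lowest value in sample 17 while another stayed within 0.21.

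For Kcnma1 the 3 probe sets above background each had another pair of highest and lowest samples. Beside the reported one, 1440728_at was highest in sample 15 and lowest in sample 13, at 7.38, 6.86, 7.60 and 7.31 in samples 11, 13, 15 and 17. The third, 1424848_at, was highest in sample 15 and lowest in sample 17, at 6.78, 6.78, 6.91 and 6.33. The span of 2.14-fold given above for the BK pore therefore rests on 1 of its 3 probe sets above background. Under the limit, 1428948_at was lowest in sample 11 and highest in sample 17, at 5.51, 5.74, 5.74 and 5.77. Also under it, 1457018_at was highest in sample 15 and lowest in sample 17, at 3.999, 3.54, 4.16 and 3.40. Kcnh3, in contrast, was highest in sample 11 and lowest in sample 17 by all 3 of its probe sets above background. The sizes were 0.50 for 1459107_at, 0.39 for 1445805_x_at and only 0.093 for 1421619_at. Of the 3, 2 were designed on the same sequence record. Kcnj4 had no second probe set.

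Over all members, 6 of the 54 probe sets above background were more than 0.5 lower in sample 17 than in sample 11, or 11.1%, and 0 were more than 0.5 higher. Over the whole array 3.23% of 13114 probe sets were that much lower and 1.24% that much higher; the size of 0.5 was chosen after the values had been seen. The 6 probe sets belong to Kcnk1, Kcnma1, Kcnj4, Kcnd2, Kcnc4 and Kcnh3. Their differences were -1.64, -1.10, -0.95, -0.65, -0.55 and -0.50 in that order. Samples 11 and 13 had the small Gapdh 3' minus 5' difference of 0.62, and sample 17 the largest, 3.79. The 6 were picked for a lower value in sample 17 than in sample 11, so that part of their order was fixed in advance. It cannot count as an agreement with the Gapdh difference. In all 6 probe sets, samples 11 and 13 were no lower than sample 15, where Kcnh3 held the same value in samples 13 and 15, and sample 17 was lowest. The part of transcript position in these values was not tested.

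**Figure D4:**
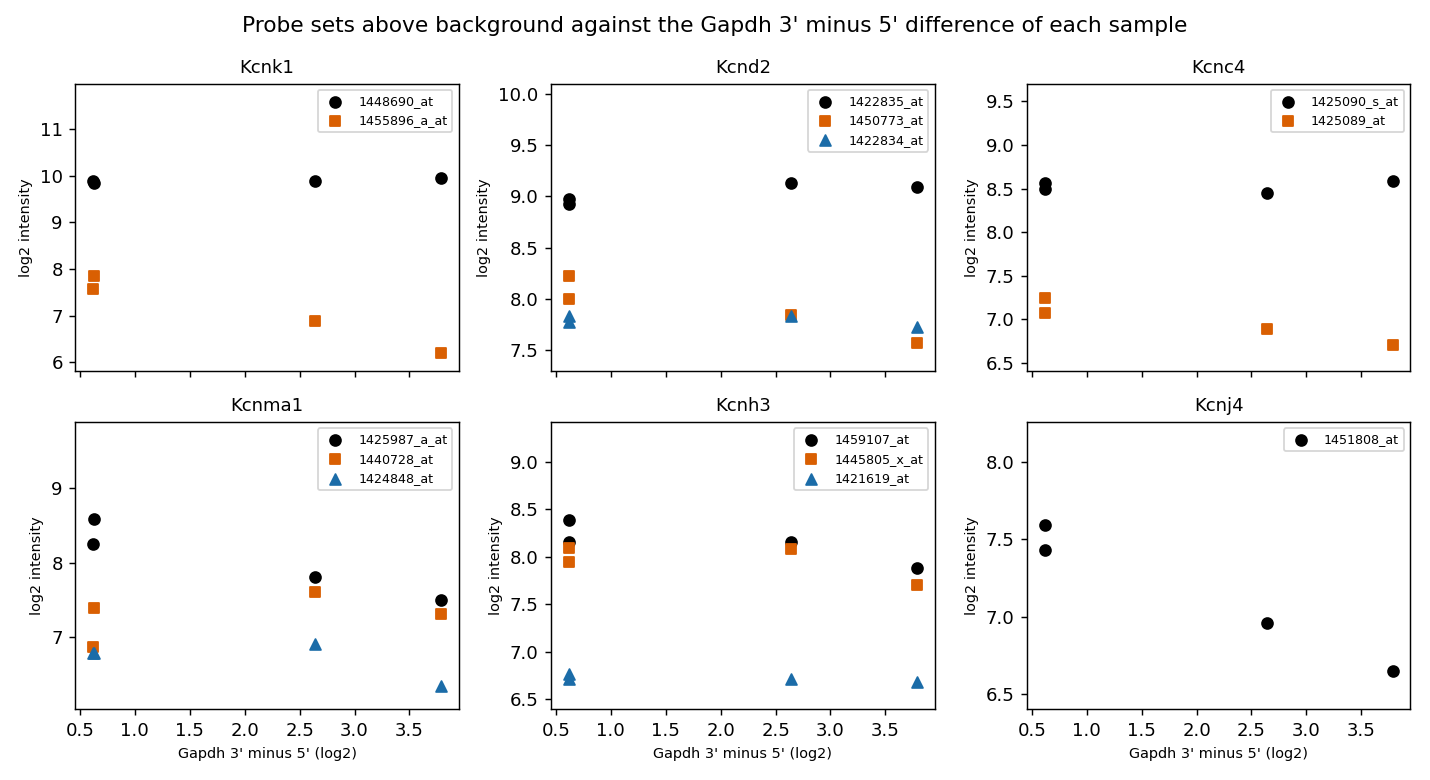
Log2 intensity (vertical axes) of each probe set above background of Kcnk1, Kcnd2, Kcnc4, Kcnma1, Kcnh3 and Kcnj4 against the Gapdh 3' minus 5' difference of the sample on the log2 scale (horizontal axis), 1 point for each of the 4 samples. For Kcnk1 the upper probe set stays level while the lower one has its lowest value, 6.20, in the sample with a Gapdh difference of 3.79.

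Joint differences of a gene's probe sets between samples were tested with an F statistic over all genes with at least 2 probe sets above background. It compares the mean square between samples with the limma-moderated one of probe set by sample. Of 2580 genes, 20 passed at an adjusted p of 0.05, or 0.775%, and 0 of the 12 members tested did. At an unadjusted p under 0.05 the members were 2 of 12, Kcnq1ot1 and Kcnh3, and all genes 508 of 2580, or 19.7%. Kcnq1ot1 had the largest F of the members, 21.5 (limma-moderated F test, adjusted p = 0.0788), followed by Kcnh3 at 6.62 (adjusted p = 0.14) and Kcnip4 at 1.84 (adjusted p = 0.506). The smallest belonged to Kcnc1 (0.107), Kcnd2 (0.815) and Kcna2 (0.924), and in each of these 3 genes the probe sets were not all lowest in the same sample. A miss here does not show that a gene was alike in the 4 samples.

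Kcnq1ot1 is not a channel. It is a long noncoding RNA transcribed against the direction of Kcnq1, from within that gene, and silences neighbouring genes on the paternal chromosome. Its 2 probe sets above background were both lowest in sample 13 and highest in sample 11. The reported one, 1458161_at, was 6.997, 6.62, 6.93 and 6.90 in samples 11, 13, 15 and 17, and 1457781_at was 6.95, 6.47, 6.75 and 6.75. In the limma-moderated F test its adjusted p was 0.0201 once the Gapdh 3' minus 5' difference was a term of the fit, and it ran from 0.0656 to 0.441 over the other settings, the highest being without sample 13. Its other 4 probe sets, all under the limit, were lowest in sample 15. The other noncoding members, Kcnmb4os1 (2.88 ± 0.065) and Kcnmb4os2 (5.95 ± 0.16), named as opposite-strand transcripts at Kcnmb4, were under the limit.

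Kcnj10 was highest in sample 13, where markers of myelin were also high. The 10 myelin markers above background, of 11 measured, were all highest in sample 13 and deviated from their means by -0.24, 0.42, -0.033 and -0.15 in samples 11, 13, 15 and 17. Mean levels over the 11 ran from 8.19 to 8.83. Mbp, the main structural protein of myelin, was 12.002, 12.13, 12.05 and 11.996 in samples 11, 13, 15 and 17, and Mog 6.003, 7.07, 6.54 and 6.30. The 8 astrocyte markers deviated by -0.092, 0.0078, 0.02 and 0.065 in samples 11, 13, 15 and 17, with 2 of 8 highest in sample 13. Cntn2, a partner of Kv1 channels at the juxtaparanode of myelinated axons, was highest in sample 13 as well, at 7.55, 8.10, 7.64 and 7.28 in samples 11, 13, 15 and 17. Kcna1 and Kcna2, the channels it clusters there, spanned 0.083 and 0.19. Of 11 measured choroid plexus markers 2 were above background: Ttr was 7.36, 9.84, 6.86 and 6.54 in samples 11, 13, 15 and 17, and Trpm3, highest in sample 17, 7.27, 7.28, 7.19 and 7.62. Under the limit, Folr1, Kl, Clic6, Otx2 and Sostdc1 were highest in sample 13, and Aqp1 (3.36, 3.30, 3.47 and 3.77) and Cldn2 (5.14, 5.02, 5.02 and 5.02) were not. The 2 channel genes set aside as choroid plexus markers, Kcnj13 (3.82 ± 0.30) and Kcne2 (2.57 ± 0.014), were under the limit. Both were highest in sample 11 and not in sample 13. Kcnj13 was 4.26, 3.66, 3.66 and 3.70 and Kcne2 2.58, 2.57, 2.57 and 2.55 in samples 11, 13, 15 and 17. The part of these cell types in the value of Kcnj10 was not tested.

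**Figure D5:**
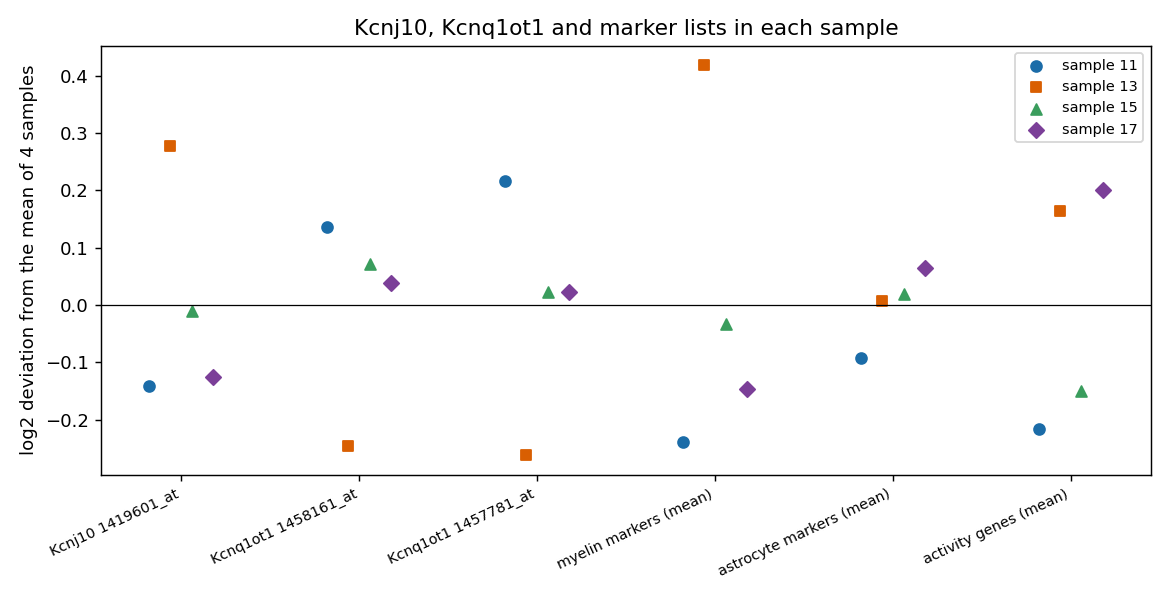
Log2 deviation from the mean of the 4 samples (vertical axis) for Kcnj10, for the 2 probe sets of Kcnq1ot1 above background and for the mean of 3 gene lists, with 1 point for each sample. In sample 13 Kcnj10 and the myelin markers have their highest points, the markers at 0.42, and both probe sets of Kcnq1ot1 their lowest.

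The sample in which each member was alone highest or lowest was counted beside that of all genes above background. Of the 37 members above background, 14 were highest in sample 17, or 37.8%, against 38.9% of 8176 genes, and 11 in sample 15, or 29.7%, against 27.4%. In sample 13 the counts were 3, or 8.11%, against 18%, namely Kcnj10, Kcnj3 and Kcnip1, and in sample 11 they were 5, or 13.5%, against 9.41%. The lowest value was in sample 11 for 14 members, or 37.8%, against 47.3%, and in sample 17 for 10, or 27%, against 13.2%. Samples 13 and 15 were lowest for 7 and 4 members, or 18.9% and 10.8%, against 18.3% and 12.8%. The median difference between samples 17 and 11 was 0.035 for the members and 0.083 for all genes above background.

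Transcripts of proteins that bind or anchor the channels were above background for 17 of 23 measured genes of a list of 25 partners. Over the whole array the share was 44.9% of 18194 genes, and the partners were picked for known binding, not at random. The 17 included the Kv1 partners Lgi1 (9.77 ± 0.024), Adam22 (9.76 ± 0.048) and Cntnap2 (8.35 ± 0.092). Ank3 (10.69 ± 0.058), which holds Kv7 channels at the axon initial segment, was among them too. The GIRK regulators Rgs7 (8.70 ± 0.076) and Snx27 (8.51 ± 0.016) were above the limit too. Amigo1, an auxiliary subunit of Kv2 channels, was just under it at 6.30 ± 0.25, and the anchor Akap5 stood at 5.31 ± 0.069. Of the BK gamma subunits in the list, Lrrc26 (3.80 ± 0.11), Lrrc38 (4.46 ± 0.066) and Lrrc52 (2.78 ± 0.051) were under it. Lrrc55, also a BK gamma subunit of the list, was not measured. The median SD of the 17 partners was 0.058, and none of the 4 samples held the highest value of more than 6 of them.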

How the data were processed

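Total RNA of 4 whole left hippocampi was DNase treated, amplified with biotin labelling and hybridised to 1 array each, per the labels' protocols. The authors deposited log2 intensities, 1 value for each probe set and array. The submitters' processing notes name RMA, and its version and settings are not stated there. Nothing was normalized again for the results as reported.

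Of the probe sets, 34958 had 1 gene symbol, 932 had several, which were not used, and 9211 had none in the probe table. All 84 member symbols are those of the RefSeq table of GRCm38.p6, which also gave the promoter windows. The members, lists and tests were chosen with earlier results of these data known.

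The background limit is the 95th percentile of 48 measured of 51 listed genes of other tissues. Spread was tested with limma (intercept only, eBayes with trend and robust fit; residual over prior variance, 3 and 2.1 degrees of freedom) and agreement of probe sets with an F statistic, squeezeVar in its denominator. Both were fitted on the whole table with Benjamini-Hochberg adjustment at 0.05 and run on simulated data with planted differences. Apart from the planted ones, the simulated probe sets shared a common SD, unlike those measured here. The simulation therefore does not show what the spread test can call in these data. Named genes are all members. Values in every sample are given for the 2 members with the largest and the 1 with the smallest SD in each family, for the HCN genes and for the 10 largest SDs; others so shown were chosen after their values were seen. Alternatives covered the limit, filter, probe set choice, scaling, variance prior, threshold, covariate and each sample left out. The number of arrays limits the precision. The tools were Python 3.11.15 with matplotlib 3.10.9, and limma 3.58.1 under R 4.3.3.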

Additional observations from a re-analysis of the deposited data

Results flagged for a closer look

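In 20 of the 82 members whose values varied, 1 sample stood far from the other 3, measured as its gap to the nearest value over the whole range (Dixon's criterion). That is 24.4% of them, against 24.5% of 17708 genes whose values varied, and among those above background it was 5 of 36, or 13.9%, against 15.6% of 8123 genes. With no repeated values, chance would mark about 1 in 20 groups. For 12 of the 20, the other 3 values were exactly equal, which fixes that ratio at 1 whatever the size of the gap.

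Of the 20, 5 were above background. Kcnt1 was 6.27 in sample 17, against 6.48 in the nearest sample, and Kcng2 was 7.04 in sample 17, against 6.82. Kcnh2 was 6.72 in sample 15, against 6.58, and Kcnip4 was 7.11 in sample 15, against 7.31. Kcnip1 was 6.72 in sample 11, against 6.75.

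The other 15 were under the limit, where values say little about transcripts. Sample 15 was high for Kcnu1 at 4.99, Hcn3 at 6.19, Kcnk15 at 3.11, Kcnab3 at 6.38 and Kcns3 at 5.77. Sample 17 was high for Kcnj2 at 2.74 and Kcnj5 at 3.61 and low for Kcne3 at 2.61 and Kcnq1 at 4.39. Sample 13 was high for Kcna4 at 5.36 and low for Kcnk16 at 4.05 and Kcnk6 at 5.28. Sample 11 was high for Kcnmb4os1 at 2.97 and Kcnn3 at 4.45 and low for Kcnk3 at 6.18.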

How the results depend on the processing

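No paired analysis was possible because the labels give 1 group. The count of 37 members above background came to 18 with the limit at the highest of the genes not expected, 7.84, and to 24 with the median of a gene's probe sets; it was 45 at the 90th percentile and 36 to 39 with a sample left out. The test of spread called 0 probe sets, over all and among members, in each alternative run, including an adjusted p of 0.1 and the Gapdh covariate. As reported, its smallest adjusted p over all probe sets was 0.901 in limma. The lack of calls in these runs therefore does not show that probe sets varied little. The test of joint differences called 20 genes as reported, 13 with no filter, 37 without moderation, 125 at an adjusted p of 0.1, 10 after quantile normalization again, 73 after median centring, 137 with the Gapdh covariate and 3 to 9 with a sample left out (3 without sample 11, 8 without 13, 7 without 15, 9 without 17). Among members it called 1 at an adjusted p of 0.1 and 1 with the covariate, Kcnq1ot1 both times. With the median of probe sets, members highest in samples 11, 13 and 17 numbered 8, 1 and 6, and those lowest in samples 11 and 15 numbered 5 and 1. After quantile normalization again, members highest in samples 11 and 13 numbered 11 and 6, and those lowest in samples 11 and 15 numbered 9 and 7. So which sample is highest or lowest depends on the scaling for members with small spans. Kcnma1, Kcnj4, Kcnh3, Kcng1 and Kcnf1 kept their highest and lowest samples under both scalings, and Kcnj10 its highest but not its lowest. The causes of these shifts were not tested. For Kcnv1 the SD of 0 became 0.029 after quantile normalization. With 4 arrays and probe sets near background, differences of the size of the repeats in the authors' values cannot be read.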
